A study of Mus musculus with 22 samples.

Results

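Trp53, the mouse gene of the transcription factor p53, and 9 genes known as its targets or partners were followed across the cell types of the colon crypt. The 10 genes, of 24421 in the count files, are Trp53, its inhibitors Mdm2 and Mdm4, the cell cycle inhibitor Cdkn1a, the death genes Bax, Bbc3 and Siva1, the cyclin Ccng1 and the stress genes Sesn1 and Sesn2. They were chosen by name, with earlier results of these data known. RNA was measured by bulk RNA-seq in 22 libraries of flow-sorted epithelial cells from untreated wild type C57BL/6N male mice aged 5 to 7 weeks. Of these, 3 were of stem cells (Cd44 highest, Cd24 low), 3 of absorptive progenitors (AbsPro, Cd44 medium to high, Cd24 low), 4 of secretory progenitors with deep crypt secretory and goblet cells (SecPDG, Cd44 high, Cd24 and cKit medium), 5 of tuft cells (cKit+, Cd24 high), 5 of enterocytes (Cd44 low or negative, Cd24-) and 2 of enteroendocrine cells (EEC, Cd44 low or negative, Cd24+). All were live Epcam+ cells without the endothelial marker Cd31 and the leukocyte marker Cd45. The stem cell and AbsPro libraries each came from a single mouse, and the others from pools of mice, largest for EEC.

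p53 is held at a low protein level in unstressed cells, where Mdm2 marks it for degradation and Mdm4 blocks its activity. When DNA is damaged, kinases free p53 from both, and it turns on genes that stop the cell cycle, repair DNA or start cell death, together with Mdm2, which closes a feedback loop. The intestinal crypt is a classical tissue for this response, because its dividing cells die or arrest readily after irradiation. The mRNA level of Trp53 says little of the amount of active protein, so the values below describe transcripts alone, in mice without such a stress.

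p53 binds pairs of a 10-base element, the p53 consensus element, placed up to 13 bases apart. RefSeq promoter windows (GRCm38.p6, 250 bases before to 50 after a start) were found for all 10 genes, 15 windows in all. The element, which reads the same on both strands, was present in 7 windows of 7 genes, against 2745 of 32851 windows of all genes, which is 8.36%. A pair was present in 1 of the 15, upstream of Cdkn1a, and in 24 windows (0.0731%) of all genes. The elements with 10 bases on each side are shown as the matches of letters found near the members' starts, with the element in capitals, 5′ to 3′ on the strand of the gene. Distances are to the start of the window that holds the element, since some of the 10 genes have several windows. For Sesn1 that start lies inside the gene, which is annotated from chr10:41809935. Single elements are common in such windows, and a match is no evidence of binding in these cells.
Trp53, chr11:69580274-69580303, plus strand, 75 bases before the start: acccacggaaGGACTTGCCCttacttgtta
Mdm2, chr10:117710925-117710954, minus strand, 186 bases before the start: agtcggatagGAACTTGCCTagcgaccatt
Cdkn1a, chr17:29090896-29090925, plus strand, 73 bases before the start: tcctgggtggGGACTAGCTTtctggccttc
Cdkn1a, chr17:29090918-29090947, plus strand, 51 bases before the start and 12 bases after the previous element: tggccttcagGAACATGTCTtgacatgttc
Bax, chr7:45467080-45467109, minus strand, 201 bases before the start: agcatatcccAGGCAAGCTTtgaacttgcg
Ccng1, chr11:40755452-40755481, minus strand, 185 bases before the start: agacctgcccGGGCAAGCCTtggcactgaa
Siva1, chr12:112644600-112644629, plus strand, 218 bases before the start: gctgtgacatAAACTAGCCCcgccccaaca
Sesn1, chr10:41887256-41887285, plus strand, 173 bases before the start: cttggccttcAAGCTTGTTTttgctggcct

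Libraries held 4122122 to 22462518 counts on genes. Reads outside genes, given by the counter as no feature, made up 41.3% to 49.9% of the sum of these and the gene counts in stem cells, AbsPro and SecPDG. Tuft cells had 43.9% to 68.4%, enterocytes 67.25% to 83.3% and EEC 64.9% to 89.9%, and 4 libraries (enterocyte 1, 2 and 3 and EEC 1) passed 80%. A background per exon length was set in each library from 1507 genes of olfactory, pheromone and trace amine receptor and keratin-associated protein families. That crypt cells, EEC among them, do not use these genes was assumed and not tested. Their counts took 12.2 to 157 CPM (counts scaled to the library total) in stem cells, AbsPro and SecPDG. They took 179 to 1473 CPM in tuft cells, 777 to 3908 among enterocytes and 622 to 7096 in EEC, and their part in the results was not tested other than by taking the background off. The lists of stem cell, tuft and enteroendocrine markers had their highest mean sum in the cell type of their label, and the goblet and deep crypt secretory list in SecPDG. The 8 enterocyte markers summed to 76094 to 116477 normalized counts in AbsPro and 53612 to 80757 in enterocytes, and to 23341 in EEC 1 and 148848 in EEC 2. The 12 immune markers summed to 213 to 217 normalized counts in stem cells and to 1468 to 3527 in tuft cells, with 480 to 1136 in enterocytes and 704 to 2533 in EEC, and the 8 stromal markers to 95.0 to 255 in stem cells, 737 to 1521 in enterocytes and 2268 to 3384 in EEC. The 9 goblet and deep crypt secretory genes summed to 21777 to 35587 normalized counts in stem cells, and to 237447 to 713640 among the enterocyte libraries. They reached at least 816234 in every tuft library, a range that overlapped with SecPDG, where the lowest library had 839668, and 8 of the 9 were called higher in tuft cells than in stem cells. The 4 endothelial markers summed to 74.3 to 164 in stem cells, 231 to 715 in tuft cells, 1303 and 1858 in EEC and 464 to 1158 in enterocytes, and 4 of 4 were called higher in each of these types than in stem cells. The part of these lists in the results was not tested. The 2 EEC libraries also differed widely in most members, so that values of EEC are given for each.

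Levels are given as normalized counts, which are counts divided by the library's TMM-scaled size and set to a common size. Changes are log2 fold changes of the named cell type against stem cells, with the standard error, from edgeR's quasi-likelihood test over 22781 genes with Benjamini-Hochberg adjustment. A gene was called at an adjusted p under 0.01, provided that it averaged at least 50 normalized counts in the 22 libraries. All 10 members passed the filter on low counts and the minimum mean.

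Trp53 (chr11:69580359-69591873, plus strand, mm10) was highest in stem cells, intermediate in both progenitor populations and had its lowest mean in enterocytes. It had 2387, 1944 and 1969 normalized counts in the 3 stem cell libraries, 908, 1396 and 829.05 in AbsPro and 1050, 1268, 979 and 1199 in SecPDG. Tuft cells had 673, 515, 550, 465.8 and 799, enterocytes 243, 266, 202, 413 and 332, and EEC 192 and 547. Each of the 19 other libraries was below the lowest stem cell library. The study had already picked Trp53 from these same libraries as a gene raised in stem cells, so that this direction is not independent evidence.

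Trp53 fell in tuft cells (-1.80 ± 0.28, adjusted p = 2.34e-06), in enterocytes (-2.85 ± 0.30, adjusted p = 1.57e-10) and in EEC (-2.44 ± 0.42, adjusted p = 5.18e-06), all by edgeR. In means, stem cells held 3.50 times the level of tuft cells, 7.21 times that of enterocytes and 5.68 times that of EEC. The differences in AbsPro (-1.01 ± 0.31, adjusted p = 0.111) and SecPDG (-0.90 ± 0.29, adjusted p = 0.0401) were not called, although neither group overlapped with stem cells. With DESeq2's Wald test both passed, at adjusted p = 0.00148 in AbsPro and 0.000833 in SecPDG. The estimates were -1.01 and -0.90 by either method. Without EEC 1, which enters the shared fit, SecPDG was called by edgeR as well, at adjusted p = 0.00595. Without EEC 2 the EEC value was -3.46 and without EEC 1 it was -2.11, both called. In bulk libraries a smaller share of cells with the transcript and less transcript in each cell cannot be told apart.

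Among the differentiated types, Trp53 was also lower in enterocytes than in AbsPro (-1.84 ± 0.31, adjusted p = 1.91e-05), SecPDG (-1.94 ± 0.30, adjusted p = 7.46e-07) and tuft cells (-1.05 ± 0.30, adjusted p = 0.0099, edgeR). EEC were lower than AbsPro (-1.44 ± 0.42) and SecPDG (-1.54 ± 0.41). AbsPro and SecPDG, next to each other in the order, had means of 1045 ± 307 (SD, n = 3) and 1124 ± 133 (SD, n = 4), with an adjusted p of 0.973 by edgeR. Of the neighbours in the order of the 6 means of Trp53, no pair was called.

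Every library of AbsPro, tuft cells, enterocytes and EEC lay below all stem cell libraries both in Trp53 and in the sum of proliferation genes. The order of the cell types differed between the 2 in other respects. The 13 genes of the proliferation list, such as Mki67, Top2a and the Mcm helicase genes, summed to 46597 to 58216 normalized counts in stem cells. The sums were 46913 to 60090 in SecPDG and 32474 to 39097 in AbsPro. Tuft cells had 21623 to 39839, enterocytes 4734 to 15840 and EEC 2537 to 4961. In SecPDG these sums overlapped with those of stem cells, whereas the Trp53 values of the groups did not overlap. Tuft cells overlapped with AbsPro in the sums but not in Trp53. EEC had the lowest mean sum (3749, against 9090 in enterocytes), while the lowest Trp53 mean was in enterocytes.

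**Figure D1:**
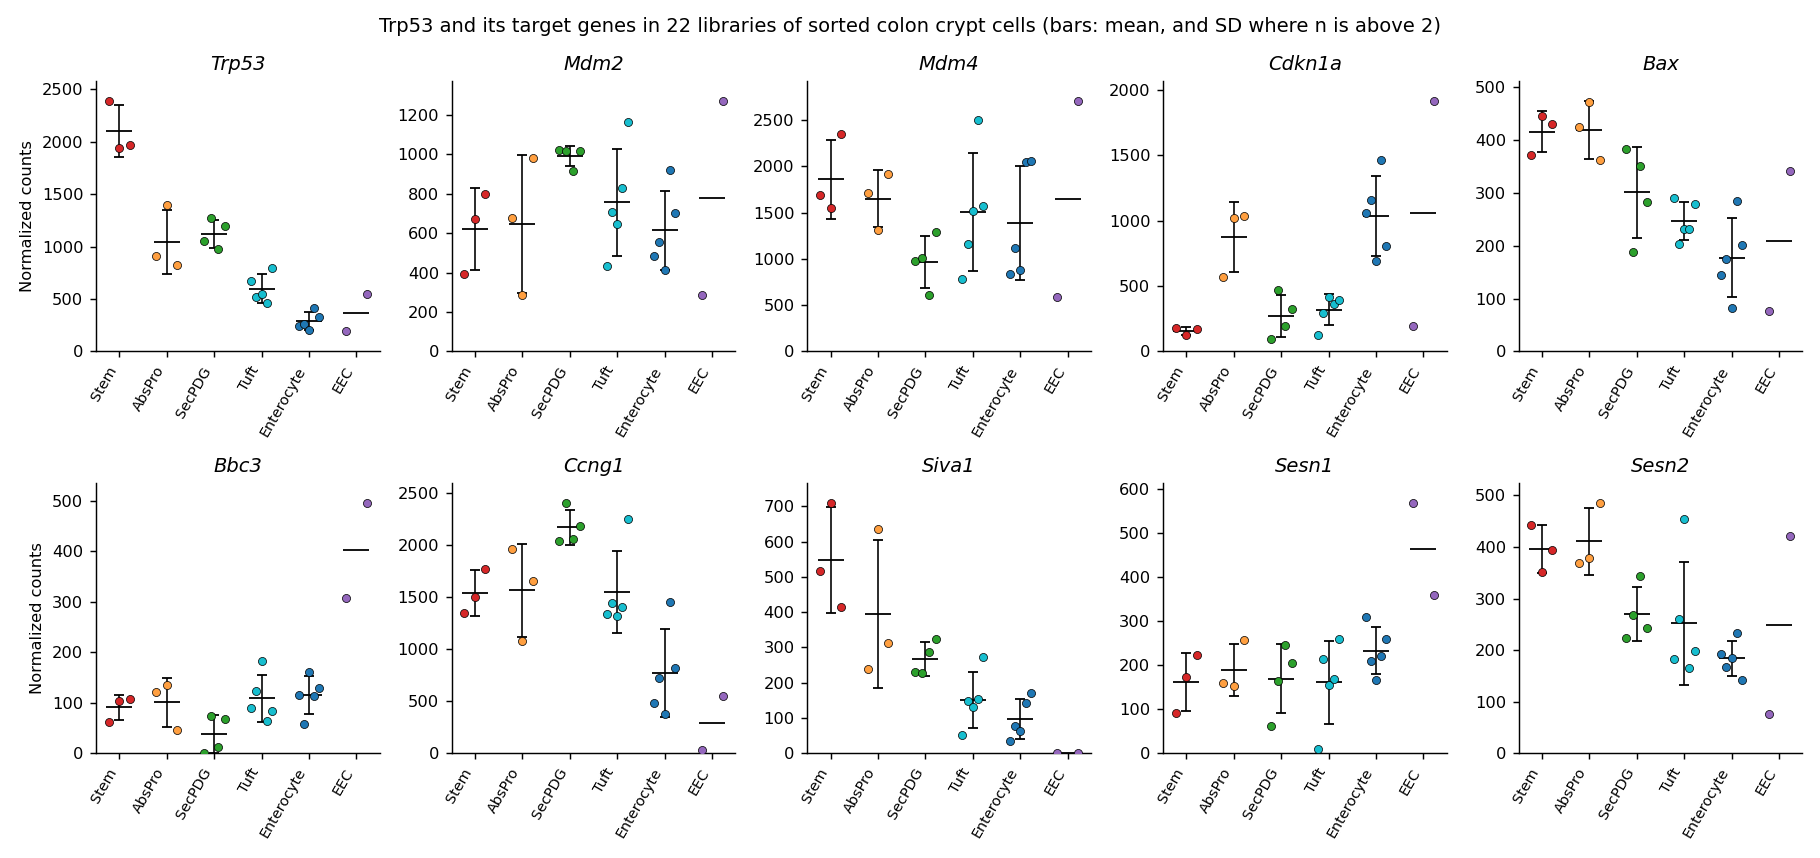
Normalized counts (y axis, from 0) of the 10 genes in each of the 22 libraries (points, coloured by cell type on the x axis), with the group mean as a black line and the SD where n is above 2. Trp53 is highest in the 3 stem cell libraries, Cdkn1a has its lowest mean there, and the 2 EEC libraries lie far apart in most genes.

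Mdm2 (chr10:117688875-117710758, minus strand), the ubiquitin ligase that degrades p53 and is itself a p53 target, had no called change in any comparison. It had 392.4, 673 and 797 normalized counts in stem cells, 676, 284 and 983 in AbsPro and 1019, 1015, 916 and 1018 in SecPDG. Tuft cells had 431, 707, 647, 830 and 1164, enterocytes 484, 556, 414, 919 and 701, and EEC 284 and 1269. SecPDG lay above every stem cell library, with a change of 0.67 ± 0.36 (adjusted p = 0.345, edgeR). The other groups overlapped with stem cells, with changes between -0.02 and 0.37, and the value in enterocytes ranged from -0.26 to 0.52 over the other settings, so that it had no stable sign.

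Mdm4 (chr1:132959484-133030561, minus strand) is the relative of Mdm2 that binds p53 without degrading it. It was called in none of the 15 pairs either, by edgeR with TMM scaling in the fit of all 22 libraries by cell type alone. Its means ran from 972 ± 280 (SD, n = 4) in SecPDG to 1863 ± 428 (SD, n = 3) in stem cells. SecPDG had 976, 1010, 609 and 1293, below stem cells with 1691, 1549 and 2350, at a change of -0.94 ± 0.37 (adjusted p = 0.116, edgeR). This difference was called with library totals (-1.17, adjusted p = 0.00438), in a fit of SecPDG and stem cells alone (-0.88, adjusted p = 0.00212), with the replicate number as a block (-1.19, adjusted p = 0.00813) and without the 4 libraries with over 80% of reads outside genes (-0.99, adjusted p = 0.00516). AbsPro had 1314 to 1922, tuft cells 784 to 2500, enterocytes 840 to 2062 and EEC 586 and 2707, all overlapping with stem cells. The change in enterocytes was -0.42 ± 0.35 and had no stable sign, since it was 0.24 without the 4 libraries with over 80% of reads outside genes.

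The ratios of the inhibitors to Trp53 within a library were higher in every enterocyte library than in any stem cell library. Per kb of exon, the ratio of Mdm2 to Trp53 was 0.131, 0.276 and 0.322 in stem cells and 0.637 to 0.772 in SecPDG. In tuft cells it was 0.510 to 1.42, in enterocytes 1.59 to 1.77 and in EEC 1.18 and 1.85, and AbsPro spread from 0.162 to 0.943. Every enterocyte library was thus above 1 and every stem cell library at or below 0.322. The ratio of Mdm4 to Trp53 was 0.194 to 0.326 in stem cells and 0.945 to 1.70 in enterocytes, with 0.170 to 0.295 in SecPDG and 0.257 to 0.634 in AbsPro. These ratios need no scaling between libraries. They share the level of Trp53 and are given as a description, without a test.

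**Figure D2:**
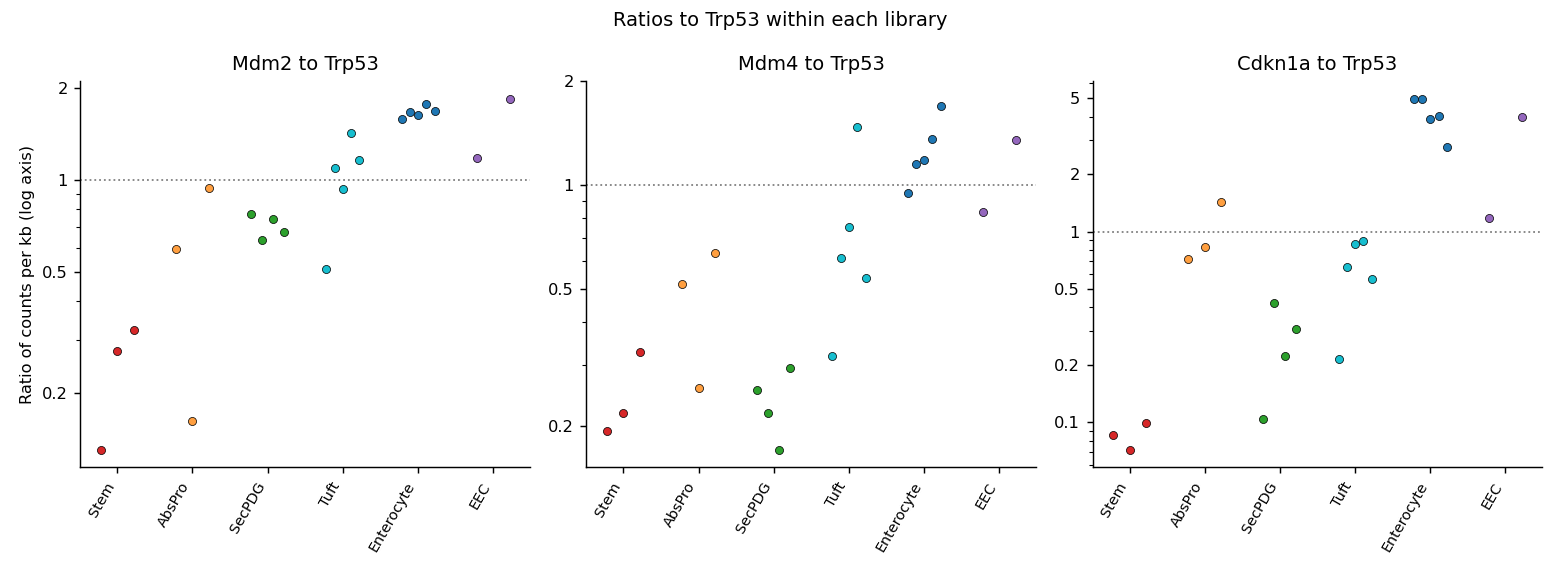
Ratio of counts per kb of exon of Mdm2, Mdm4 and Cdkn1a to those of Trp53 (y axes, logarithmic) in each library, by cell type. The dotted line marks a ratio of 1. The enterocyte libraries lie at 1.59 to 1.77 for Mdm2 and at 2.76 to 4.97 for Cdkn1a, above all stem cell libraries.

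Cdkn1a (chr17:29090976-29100727, plus strand), which encodes the cyclin-dependent kinase inhibitor p21 and is the best known arrest target of p53, had its lowest mean in stem cells and was high in AbsPro and enterocytes. It had 181, 123 and 172 normalized counts in stem cells, 570, 1022 and 1038 in AbsPro and 1061, 1155, 691, 1466 and 805 in enterocytes. SecPDG had 96.4, 469, 192 and 324, and tuft cells 127, 294, 415, 365 and 397, and both overlapped with stem cells. EEC had 197 in one library and 1915 in the other.

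Cdkn1a rose in AbsPro (2.47 ± 0.46, adjusted p = 0.000888, edgeR), where it was higher in 3 of 3 libraries, and in enterocytes (2.72 ± 0.44, adjusted p = 2.47e-06), where it was higher in 5 of 5. In means these were 5.54 and 6.54 times the stem cell level. SecPDG (0.74 ± 0.48) and tuft cells (1.03 ± 0.46) were not called, at adjusted p = 0.502 and 0.0732. In AbsPro the adjusted p became 0.0113 without stem cell library 2, and 0.0176 with edgeR's earlier method, both past 0.01. The call in EEC (2.80 ± 0.50, adjusted p = 1.24e-05) rests on EEC 2, since without it the change was 0.32 with an adjusted p of 0.761. EEC 2 was also the library with 148848 normalized counts of enterocyte markers, and the part of these in the value was not tested.

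The absorptive and secretory progenitors differed directly in Cdkn1a, with SecPDG below AbsPro (-1.73 ± 0.42, adjusted p = 0.00364, edgeR). Tuft cells were also below AbsPro (-1.44 ± 0.39, adjusted p = 0.00622, edgeR), and this was 1 of the 2 neighbouring pairs called among the 50 of all members. The share of neighbouring pairs called over all genes was not computed. Enterocytes were above SecPDG (1.98 ± 0.39) and tuft cells (1.69 ± 0.35). Enterocytes and AbsPro, with means of 1035 ± 305 (SD, n = 5) and 877 ± 266 (SD, n = 3), had an adjusted p of 0.564. The ratio of Cdkn1a to Trp53 per kb was 0.0720 to 0.0994 in stem cells and 2.76 to 4.97 in enterocytes. SecPDG had 0.105 to 0.421, tuft cells 0.215 to 0.891 and AbsPro 0.714 to 1.43, and the 2 EEC libraries had 1.17 and 3.98. Stem cells lay below all other libraries in this ratio, and enterocytes lay above AbsPro without overlap. EEC 1 was within the range of AbsPro and EEC 2 within that of enterocytes. Reads were counted without strand, and exons of Cdkn1a overlap those of an annotated antisense gene, AC167363.2, so that reads of the pair cannot be told apart.

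Bax (chr7:45461697-45466898, minus strand) encodes the pore-forming protein that opens the mitochondrial membrane in cell death, and was lower in enterocytes. It had 372, 446 and 431 normalized counts in stem cells, 425, 472 and 363 in AbsPro, and 383, 188, 351 and 283 in SecPDG. Tuft cells had 290.5, 203, 231, 231 and 279, enterocytes 145, 174, 83.2, 285 and 201, and EEC 75.9 and 342. Tuft cells, enterocytes and EEC all lay below the lowest stem cell library. The fall in enterocytes (-1.22 ± 0.35, adjusted p = 0.00284, edgeR) was not called with DESeq2's Wald test (-0.74, adjusted p = 0.0425). By edgeR it was also not called with DESeq2's size factors (-0.71, adjusted p = 0.0341), library totals, upper quartile factors or the earlier method. The call was lost too without enterocyte library 3 (-1.03, adjusted p = 0.0144) or without the 4 libraries with over 80% of reads outside genes (-0.66, adjusted p = 0.152). Tuft cells (-0.75 ± 0.33) and EEC (-0.89 ± 0.46) were not called, although EEC were without EEC 2 (-2.46). Exons of Bax overlap those of the annotated gene Gm45808.

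Bbc3 (chr7:16308393-16318205, plus strand) encodes Puma, a death inducer that p53 is known to switch on in damaged crypts, and was high in EEC. It had 307 and 496 normalized counts in the 2 EEC libraries and at most 182 in any other. Stem cells had 62.7, 103 and 107, AbsPro 122, 136 and 46.0, SecPDG 0, 74.6, 12.6 and 67.6, tuft cells 64.4 to 182, and enterocytes 58.5 to 162. The rise in EEC was 2.16 ± 0.51 (adjusted p = 0.000538, edgeR), and EEC were also above AbsPro (1.98 ± 0.51), SecPDG (3.52 ± 0.58), tuft cells (1.95 ± 0.48) and enterocytes (1.83 ± 0.48, adjusted p = 0.00738), the last being the other neighbouring pair called. Without EEC 2 the rise was 1.74 with an adjusted p of 0.0248, with edgeR's earlier method the adjusted p was 0.067, and in a fit of EEC and stem cells alone it was 0.0122, none of them called. In EEC 1 the background rate amounted to 20.8 of the 307.

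Siva1 (chr12:112644679-112649149, plus strand), a death-inducing target of p53 with the receptor CD27 as a known partner, fell in tuft cells and enterocytes and was not counted at all in EEC. It had 517, 710 and 413 normalized counts in stem cells, 239, 634 and 313 in AbsPro, and 229, 228, 286 and 325 in SecPDG. Tuft cells had 52.5, 148, 130, 154 and 272, and enterocytes 35.1, 76.9, 63.5, 143 and 170. Tuft cells (-1.80 ± 0.36, adjusted p = 0.000188, edgeR) and enterocytes (-2.48 ± 0.40, adjusted p = 2.19e-06) were called, whereas AbsPro (-0.47 ± 0.37) and SecPDG (-1.03 ± 0.36, adjusted p = 0.067) were not. With library totals SecPDG was called (-1.25, adjusted p = 0.00909).

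Both EEC libraries held 0 reads of Siva1. With a floor of 3 counts over the group, its level was at least 251-fold lower than in stem cells (adjusted p = 2.65e-07, edgeR), at least 182-fold lower than in AbsPro and at least 69.4-fold lower than in tuft cells. The floor covers counting error alone. Against enterocytes the difference was not called, at an adjusted p of 0.016. The background rate of EEC 1 would have given 23.7 normalized counts over the exons of Siva1, where none was counted.

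Ccng1 (chr11:40748552-40755311, minus strand), cyclin G1, a p53 target that takes part in the Mdm2 feedback, had its highest mean in SecPDG and its lowest in EEC. It had 2031, 2402, 2059 and 2178 normalized counts in SecPDG, above stem cells with 1340, 1501 and 1770, at a change of 0.49 ± 0.35 (adjusted p = 0.557, edgeR), which was called in a fit of SecPDG and stem cells alone (0.56, adjusted p = 0.00799). AbsPro had 1959, 1080 and 1650, tuft cells 1338, 1440, 1314, 1405 and 2246, enterocytes 483, 725, 373, 1447 and 814, and EEC 27.1 and 548. EEC fell (-2.29 ± 0.52, adjusted p = 0.000302), and were also called below AbsPro, SecPDG and tuft cells. The value in EEC 1 was below its background of 34.3, and without that library the change was -1.65 with an adjusted p of 0.00406, and without EEC 2 it was -5.82. In a fit of EEC and stem cells alone the adjusted p was 0.0204, past the threshold. Enterocytes were below SecPDG (-1.49 ± 0.32, adjusted p = 0.000203) but not called against stem cells (-0.99 ± 0.34, adjusted p = 0.0117). That difference was called with the replicate number as a block (-1.29, adjusted p = 0.00116), with thinned counts (-1.03, adjusted p = 0.00691), with no filter on low counts (-1.06, adjusted p = 0.00631) and without any one of 10 libraries, which were stem cell 2, AbsPro 1 and 3, SecPDG 2, tuft 4 and 5, enterocyte 1 and 4 and both EEC libraries.

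Sesn1 (chr10:41809935-41908424, plus strand) and Sesn2 (chr4:132492032-132510501, minus strand) encode sestrins, stress proteins that restrain the growth kinase complex mTORC1, and differed in pattern. Sesn1 had 91.0, 173 and 222 normalized counts in stem cells, and 569 and 359 in EEC. AbsPro had 152 to 258, SecPDG 62.4 to 246, tuft cells 9.76 to 260 and enterocytes 168 to 310. Both EEC libraries were above all others, with a change of 1.47 ± 0.49 that was not called (adjusted p = 0.0118, edgeR). The change was called in 7 of the 13 settings other than leaving out 1 library. Among these were DESeq2's Wald test (adjusted p = 0.00291) and, by edgeR, DESeq2's size factors (2.22, adjusted p = 0.000791), thinned counts (0.00326) and the replicate number as a block (0.00283). It was also called without any one of SecPDG 1, tuft 1, tuft 5 and EEC 2, and was 0.97 with an adjusted p of 0.226 without EEC 1. Sesn2 had 443, 351 and 394 in stem cells, and AbsPro had 368 to 486, SecPDG 224 to 343 and tuft cells 166 to 455. Enterocytes had 193, 166, 185, 234 and 143, and EEC 75.9 and 421. The fall of Sesn2 in enterocytes (-1.10 ± 0.36, adjusted p = 0.0077) was lost in 9 of the 13 settings other than leaving out 1 library, among them DESeq2's size factors (-0.55, adjusted p = 0.137), DESeq2's Wald test (adjusted p = 0.248), library totals (0.0897), a fit of the 2 cell types alone (0.0206) and the replicate number as a block (0.0156), and without any one of stem cell library 1 and enterocyte libraries 2, 3 and 5. Without EEC 2 the value of Sesn2 in EEC was -2.38 and called, against -0.56 with both.

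**Figure D3:**
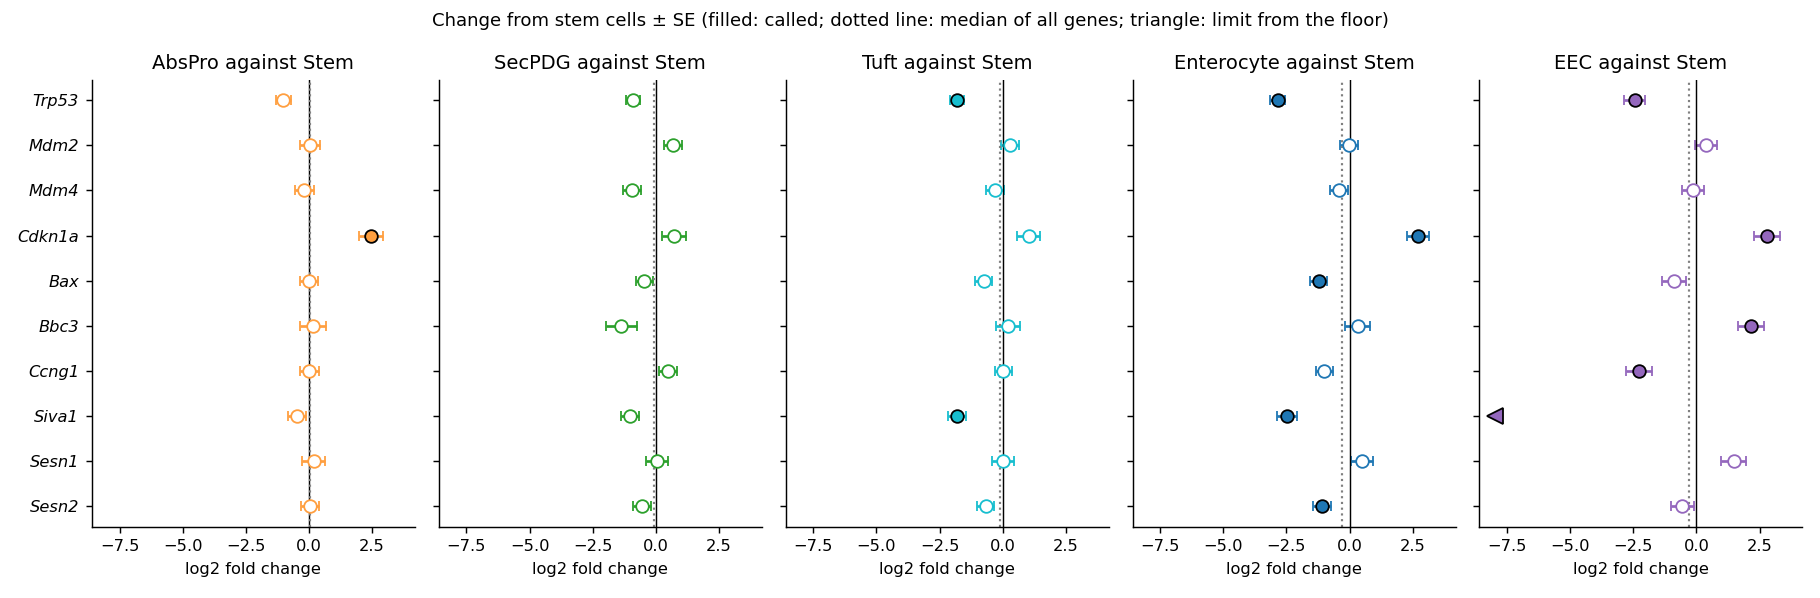
Log2 fold change against stem cells (x axes) ± SE of the 10 genes in 5 comparisons, with filled points where the gene was called and open points where it was not. The dotted line is the median of the 13188 genes with a mean of at least 50 normalized counts, and the triangle for Siva1 in EEC marks the limit from the floor of 3 counts. Trp53 and Siva1 are called lower in tuft cells, enterocytes and EEC, and Cdkn1a higher in AbsPro, enterocytes and EEC.

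In numbers, 1 of the 10 members was called higher in AbsPro (background 0.496% of all genes tested) and 0 lower (0.0922%). In SecPDG 0 were called higher (3.38%) and 0 lower (1.6%), and in tuft cells 0 higher (7.83%) and 2 lower (4.23%). In SecPDG 4 of 10 were at an unadjusted p under 0.05 by edgeR. The share of all genes at an unadjusted p under 0.05 was not computed for any comparison. DESeq2's Wald test called 1 of the 10 in SecPDG, and 1856 of all 23674 genes. Enterocytes had 1 higher (10.7%) and 4 lower (11.5%), and EEC 2 higher (10.8%) and 3 lower (9.14%). Between the other cell types, members called in either direction were 1 in SecPDG against AbsPro (3.72% of all genes), 1 in tuft cells against AbsPro (8.13%), 4 in enterocytes against AbsPro (16.2%), 4 in EEC against AbsPro (18.3%), 0 in tuft cells against SecPDG (3.36%, with 3 of 10 at an unadjusted p under 0.05 by edgeR), 4 in enterocytes against SecPDG (23.4%), 5 in EEC against SecPDG (21.3%), 2 in enterocytes against tuft cells (8.44%), 4 in EEC against tuft cells (9.29%) and 1 in EEC against enterocytes (4.71%). The median change of the members was -0.71 in enterocytes and -0.35 in EEC, where the 13188 genes had medians of -0.30 and -0.30. It was 0.04, -0.50 and -0.14 in AbsPro, SecPDG and tuft cells, against 0.04, -0.06 and -0.09. The 5 comparisons share the stem cell libraries.

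The scaling between libraries moved these medians. DESeq2's size factors placed the median of all genes at 0.35 in enterocytes and 0.48 in EEC, a shift of 0.65 and 0.78 from TMM, and of 0.29 in tuft cells. Of the genes called in enterocytes 48.3% were higher with TMM and 75.6% with size factors, and in EEC 54.2% and 77.3%, whereas library totals took the share in SecPDG from 67.9% to 44.1%. The members called in enterocytes went from 1 higher and 4 lower to 1 higher and 2 lower. Relative to the median of all genes, Trp53 was at -2.55 in enterocytes with TMM and -2.68 with size factors, Cdkn1a at 3.02 and 2.92, and Siva1 at -2.18 and -2.33. In the same terms Bax was at -0.93 and -1.06, and in EEC Trp53 was at -2.14 and -2.34, Bbc3 at 2.46 and 2.32 and Ccng1 at -1.98 and -2.22.

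Levels of different genes were compared per kb of exon. In stem cells Trp53 was the most abundant of the 10, with 519 normalized counts per kb, ahead of Ccng1 with 438, Bax with 264 and Siva1 with 226. Mdm4 (126), Mdm2 (122) and Sesn2 (114) followed, and Cdkn1a (44.6), Bbc3 (42.8) and Sesn1 (40.8) were the least abundant. In enterocytes the order was led by Cdkn1a with 291, followed by Ccng1 with 219, and Trp53 stood at 72.0. In AbsPro, SecPDG and tuft cells Ccng1 led with 445, 617 and 441.

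**Figure D4:**
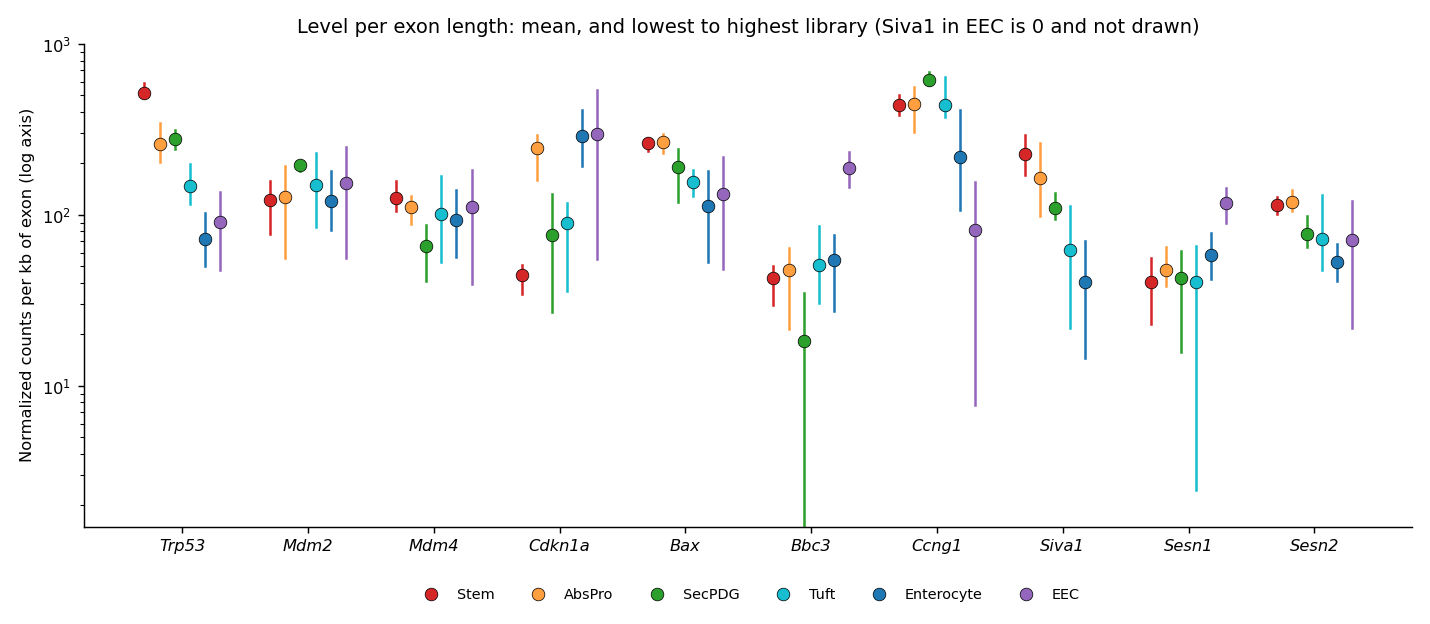
Normalized counts per kb of exon (y axis, logarithmic) of the 10 genes, with the mean as a point and the lowest to highest library as a line, coloured by cell type. The line of Bbc3 in SecPDG runs off the axis because 1 library is at 0, and Siva1 in EEC is not drawn. Trp53 leads in stem cells at 519 and Cdkn1a in enterocytes at 291.

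The genes whose log2 CPM followed those of Trp53 most closely over the 22 libraries, of 13187 others, were Mybbp1a (r = 0.97), Mbd3 (0.96), Wdr5 (0.96), Tcof1 (0.96) and Hsp90ab1 (0.96). Of these Mybbp1a had a mean of 5987 normalized counts in stem cells and 919 in enterocytes. For Cdkn1a they were Klf6 (0.91), Gm15401 (0.89), Areg (0.89), Zfyve1 (0.89) and Sdcbp2 (0.88), with Klf6 at 606 in stem cells, 1765 in AbsPro and 2947 in enterocytes. Among the members, the correlation with Trp53 was 0.82 for Bax, 0.69 for Sesn2, 0.67 for Siva1 and 0.67 for Ccng1, 0.28 for Mdm4 and 0.24 for Mdm2, and -0.45 for Cdkn1a, -0.32 for Bbc3 and -0.30 for Sesn1. The points share cell types, depth and background, and the values are a description.

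Beyond the members, 85 genes of the p53 pathway and its surroundings were counted in 10 lists. Of the 84 that were tested, 1 rose and 0 fell in AbsPro, 4 rose and 2 fell in SecPDG, 4 and 10 in tuft cells, 7 and 27 in enterocytes, and 5 and 20 in EEC. As shares of the 84 these were 1.19% and 0% in AbsPro, where 0.496% and 0.0922% of all genes tested were called higher and lower, 4.76% and 2.38% in SecPDG (3.38% and 1.6%), 4.76% and 11.9% in tuft cells (7.83% and 4.23%), 8.33% and 32.1% in enterocytes (10.7% and 11.5%) and 5.95% and 23.8% in EEC (10.8% and 9.14%). The 13 proliferation genes accounted for 13 of the 27 that fell in enterocytes, 13 of the 20 in EEC and 8 of the 10 in tuft cells. Median changes over the 84 were -0.46 in enterocytes, -0.68 in EEC, -0.28 in tuft cells, -0.15 in AbsPro and -0.17 in SecPDG.

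Of 11 genes upstream of Trp53, which are kinases and sensors of DNA damage and modifiers such as Ep300 and Sirt1, 5 fell and 0 rose in enterocytes, beside 11.5% of all genes called lower there, and 6 were not called. Those that fell were Atr (-1.42 ± 0.29), the checkpoint kinases Chek1 (-1.58 ± 0.45) and Chek2 (-1.32 ± 0.36), the kinase Hipk2 (-1.13 ± 0.32) and the p53-binding repair protein Trp53bp1 (-1.14 ± 0.30). With DESeq2's size factors Atr was called, at -0.89, and Chek1 (-1.03), Chek2 (-0.77), Hipk2 (-0.57) and Trp53bp1 (-0.59) were not, and without stem cell library 1 Hipk2 had an adjusted p of 0.0102 by edgeR. In EEC Atr alone was called (-1.37 ± 0.40), and neither with size factors (-0.70) nor without EEC 2 (adjusted p = 0.0151). The background rate amounted to 30.0% of the mean of Atr in enterocytes and 36.5% in EEC, and both calls held with it taken off. None of the 11 was called in AbsPro, SecPDG or tuft cells.

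The other members of the family, Trp63 and Trp73, encode related transcription factors, and were near 0 in stem cells. Trp73 had 0 to 0.640 normalized counts in stem cells and 9.20 to 153 in tuft cells. Enterocytes had 33.1 to 207, EEC 1 had 311 and EEC 2 had 6.07. Trp63 had 0 to 27.5 in stem cells, 106 to 281 in enterocytes, 734 in EEC 1 and 74.0 in EEC 2. Both were called higher in enterocytes and EEC, and Trp73 in tuft cells. The background rate amounted to 20.5% and 22.6% of the mean of Trp63 and Trp73 in enterocytes, and to 12.1% and 20.3% in EEC. In EEC 2 the 6.07 of Trp73 were below its background of 10.1. The EEC calls rest on EEC 1, the library with the highest background, since without it the adjusted p was 0.167 for Trp63 and 0.658 for Trp73 by edgeR. Without EEC 1, Trp73 also averaged under the minimum mean of 50 normalized counts, so that it could be called in no comparison. With the background taken off, both kept their calls in enterocytes and EEC, while Trp73 in tuft cells had an adjusted p of 0.0103 by edgeR, and of 0.0101 with size factors, and was also lost without stem cell library 2 or 3.

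Of the 6 feedback genes and cofactors, 1 was called, cyclin G2 (Ccng2), which rose in enterocytes (1.85 ± 0.33) from 252 to 902 normalized counts in means. In enterocytes 10.7% of all genes tested were called higher. Arrest targets went in different directions. Plk2, a stress-induced kinase gene, rose in SecPDG (2.09 ± 0.36) and tuft cells (2.99 ± 0.36), Plk3 in enterocytes (3.30 ± 0.40) and Gadd45g in tuft cells (2.44 ± 0.52) and EEC (3.26 ± 0.59). Gtse1, which is expressed in the G2 phase, fell in enterocytes (-2.03 ± 0.42) and EEC (-4.14 ± 0.83). Btg2 was also called higher in SecPDG, and Sfn lower in SecPDG and tuft cells. Of the 12 apoptosis targets, Pmaip1 (Noxa, 3.68 ± 0.42) and the death receptor gene Fas (2.67 ± 0.57) rose in enterocytes. The nuclease gene Aen fell there (-1.39 ± 0.36), although it was not called by edgeR with DESeq2's size factors (-0.85, adjusted p = 0.0334). Of all genes tested, 10.7% were called higher and 11.5% lower in enterocytes, and 1.6% lower in SecPDG. Bid fell in SecPDG (-1.68 ± 0.45), where the adjusted p was 0.00998 by edgeR, became 0.0138 with the background taken off, and was past the threshold in 14 of the 22 fits without 1 library. Pmaip1 had 697 to 2059 normalized counts in enterocytes and 65.4 to 94.7 in stem cells.

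Repair and metabolism targets that were called all fell. Of the 7 repair targets, 1 fell in tuft cells, 2 in enterocytes and 2 in EEC. Of the 8 metabolism and stress targets tested, these numbers were 0, 2 and 1. Of all genes tested, 4.23%, 11.5% and 9.14% were called lower in these types. Pcna, the sliding clamp of replication, fell in tuft cells (-1.21 ± 0.29), enterocytes (-2.60 ± 0.33) and EEC (-2.18 ± 0.44), with the call in tuft cells lost without stem cell library 2 (adjusted p = 0.0105, edgeR). Ddb2 fell in enterocytes (-1.45 ± 0.48), which was not called with size factors (-0.92, adjusted p = 0.0886) or in 8 of the 22 fits without 1 library. Rps27l fell in EEC (-2.20 ± 0.57), and was not called without EEC 2 (adjusted p = 0.0179). Of the 8 metabolism and stress targets tested, Sesn3, the third sestrin gene, fell in enterocytes (-2.09 ± 0.33), where the background rate amounted to 44.9% of its mean. Ddit4 fell in enterocytes (-1.07 ± 0.36), a call that was lost with the background taken off, with size factors (-0.54) and in 8 of the 22 fits without 1 library. Gpx1 fell in EEC (-1.48 ± 0.46), and was at -0.94 with size factors, still called, and not called without EEC 1 (adjusted p = 0.0644).

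**Figure D5:**
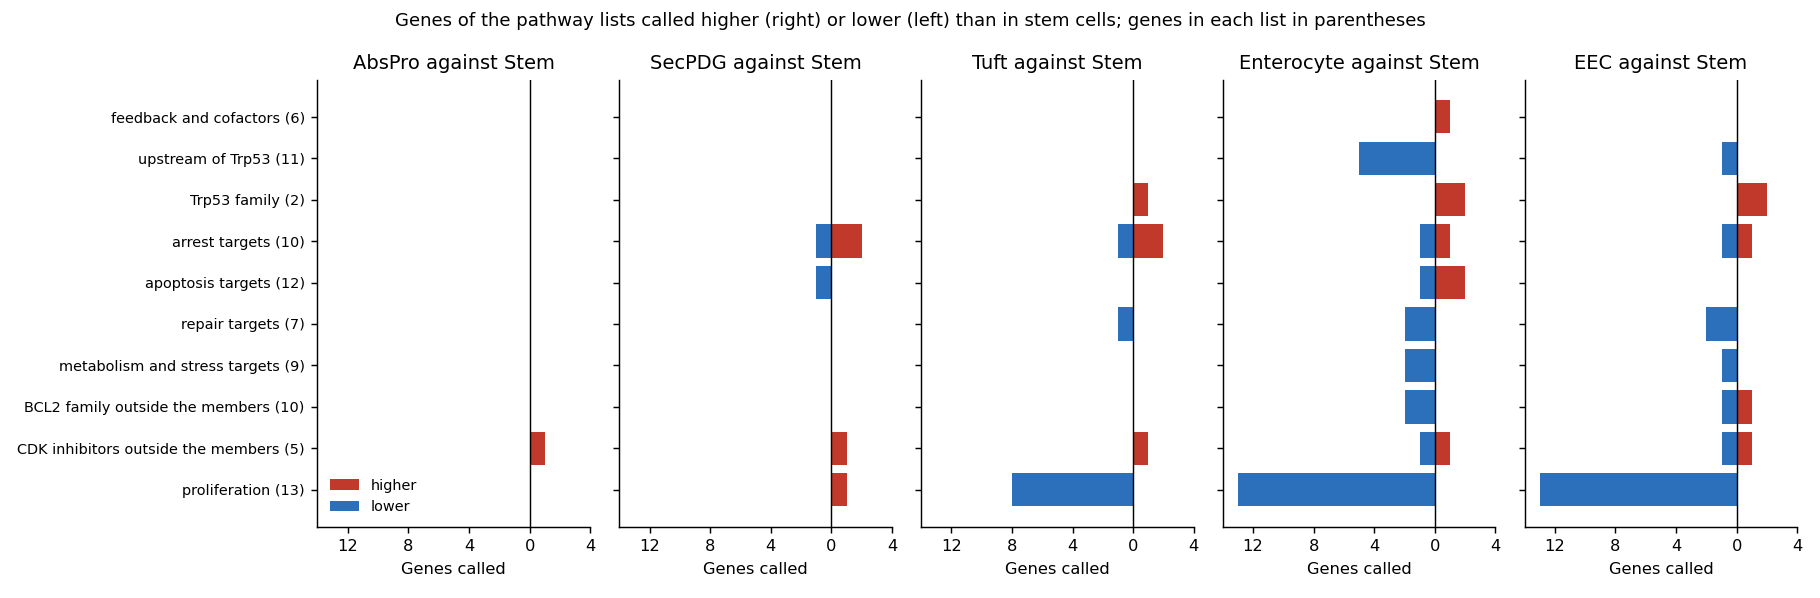
Number of genes called higher (red, to the right) or lower (blue, to the left) than in stem cells (x axes) in each of the 10 pathway lists, with the number of genes per list in parentheses, for 5 comparisons. All 13 proliferation genes are lower in enterocytes and EEC, and the other lists hold between 0 and 5 called genes in a direction.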

How the data were processed

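Gene expression was measured by bulk RNA-seq in 22 libraries, grouped by their labels. The authors aligned paired-end reads to mm10 with STAR 2.5.2a and counted them per gene with HTSeq 0.6.1p1 without strand, and deposited raw counts. Pseudogenes of Trp53 and Mdm4 are annotated, and reads shared with them are uncertain. The 5 rows naming no gene (54.0% to 91.6% of a file's total) were left out. Deposited tables of rMATS, MAJIQ and DaPars hold splicing and polyadenylation comparisons of the authors and were not used here.

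Counts were tested with edgeR 4.0.16 (R 4.3.3; glmQLFit with its current method, filterByExpr, TMM, cell type as the only term, 1 fit), and with DESeq2 1.42.0 as an alternative. The fit was also run on simulated counts, with the same spread setting for every gene, and scored for tuft cells against stem cells alone. The simulation held no difference in background between libraries. In the data the background families had a mean of 950 CPM in tuft cells and 72.8 in stem cells. The simulation therefore covers neither this difference in the scored pair nor the other comparisons. Lengths and coordinates are from the GRCm38 (mm10) annotation GENCODE M21, and promoters from RefSeq (GRCm38.p6). Correlations used log2 CPM with a prior count of 2. The members and lists were chosen with earlier results of these data known. Named beyond the members were up to 4 called genes per list with the largest change and the 5 genes most like Trp53 and Cdkn1a. Hipk2, Btg2, Sfn and the genes that complete a count of calls were added after their values were seen. Replicates are independent sorts of mice or pools. Depth was 4122122 to 22462518 counts, so that low genes are least precise in EEC 1.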

Additional observations from a re-analysis of the deposited data

Results flagged for a closer look

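Among the 30 groups of 4 or 5 libraries of the members, 2 held a library that stood apart from the others by Dixon's test, where chance gives about 1 in 20 groups. Mdm2 in SecPDG 3 was at 916 normalized counts, below the other 3 at 1015 to 1019. Ccng1 in tuft library 5 was at 2246 normalized counts, above the other 4 at 1314 to 1440.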

How the results depend on the processing

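Each change of a member against stem cells, and the counts of calls given below, were recomputed under 35 alternatives. Of these, 22 were fits without 1 library, and none reversed a called value. Changes between other cell types entered only through the count of neighbours called. The ratios, levels per kb, correlations and promoter counts were not recomputed in this way. Of 1575 alternative values of the members other than Trp53, 27 lost and 33 gained a call. The 2 members called in tuft cells stayed at 2 throughout. Members called in AbsPro (1) became 2 with DESeq2's Wald test, DESeq2's size factors, library totals or without the 4 libraries over 80% outside genes, 0 with edgeR's earlier method, and 0 to 1 with 1 library left out. In SecPDG (0) they became 1 with DESeq2, size factors, upper quartile factors or adjusted p under 0.05, 3 with library totals or a fit of the 2 cell types only, 2 without the 4 libraries, and 0 to 1 with 1 left out. In enterocytes (5) they became 3 with DESeq2, size factors, library totals, upper quartile factors, the earlier method or without the 4 libraries, and 3 to 6 with 1 left out. In EEC (5) they became 3 with the fit of 2 cell types, which has fewer samples. The cause was tested neither for this change nor for the others. The number of all genes called moved as well. It was 134 of 22781 in AbsPro, 420 of 23674 with DESeq2 and 83 with the earlier method. In SecPDG it was 1134, 1880 with library totals and 2191 of 13789 with 2 cell types. Enterocytes had 5060, 6074 with size factors and 3082 with the earlier method. EEC had 4541, and 1429 of 17736 with 2 cell types. The fit without the 4 libraries and the earlier method were chosen after seeing the data.

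Pathway genes called in AbsPro (1) became 3 with DESeq2, 2 with size factors, library totals, upper quartile factors, adjusted p under 0.05 or the background taken off, 8 with the fit of 2 cell types or without the 4 libraries, 0 with the earlier method, and 0 to 4 with 1 left out. In SecPDG (6) they became 11 with size factors, 10 with library totals or upper quartile factors, 12 at 0.05, 16 with 2 cell types, 13 without the 4 libraries, and 4 to 13 with 1 left out (13 without EEC 1). In tuft cells (14) they became 25 at 0.05 and 9 with the earlier method, and in EEC (25) 39 at 0.05 and 12 with 2 cell types. Beside these, all genes called in tuft cells went from 2748 to 4486 at 0.05 and 1468 with the earlier method. In EEC they went from 4541 to 6257 at 0.05 and 1429 of 17736 with 2 cell types. With 2 cell types they went from 134 to 455 of 13829 in AbsPro and from 1134 to 2191 of 13789 in SecPDG.

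Trp53 in AbsPro was called at -1.01 with DESeq2 and with size factors, -1.06 with library totals and -0.99 without the 4 libraries. In SecPDG it was called at -0.90 with DESeq2, size factors or at 0.05, -1.13 with library totals, -0.89 with upper quartile factors, -0.85 with 2 cell types and -0.95 without the 4 libraries, and ranged from -0.94 to -0.80 with 1 left out. Neighbours called in the order of levels (2) became 4 with DESeq2, library totals, upper quartile factors or without the 4 libraries, 6 at 0.05, 5 with counts thinned to the smallest library, 1 with the earlier method, and 1 to 5 with 1 left out. The share of neighbours called over all genes was computed for none of these.

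Replicate numbers were not treated as pairs, since 16 of 44 same-numbered pairs of libraries had deviations correlated above 0.1 (range -0.393 to 0.488). With the replicate number as a block, Mdm4 in SecPDG, Ccng1 in enterocytes and Sesn1 in EEC gained a call and Sesn2 in enterocytes lost it, and 1, 1, 2, 5 and 6 members were called in AbsPro, SecPDG, tuft cells, enterocytes and EEC, 2 pathway genes in AbsPro, and Trp53 was at -1.04, -0.96, -1.95, -3.00 and -2.57. With this block 209, 1328, 3883, 6074 and 4853 of all 22781 genes tested were called, in the same order of cell types. Depth limits EEC 1 most, with 4122122 counts on genes.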

Other observations

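Of the 5 genes of cyclin-dependent kinase inhibitors beside Cdkn1a in the lists, 3 were called in some comparison with stem cells. Of all genes tested, 0.0922% to 11.5% were called per comparison and direction. The share of all genes called in any of the 5 comparisons was not computed. Cdkn2b (p15) was called higher in AbsPro (3.25 ± 0.58, adjusted p = 0.000416, edgeR) and enterocytes (4.64 ± 0.50), with 179 to 202 normalized counts in AbsPro, 444 to 666 in enterocytes, 9.43 to 32.0 in stem cells and 6.10 to 39.2 in tuft cells. The call in AbsPro was lost without stem cell library 3 (adjusted p = 0.0108). In EEC the change of Cdkn2b was 2.13 ± 0.83 (adjusted p = 0.0308) and not called, but it was called with DESeq2's size factors (2.77, adjusted p = 0.00674). Cdkn1c (p57) was called higher in SecPDG (2.13 ± 0.52), tuft cells (5.30 ± 0.43) and EEC (4.38 ± 0.50), with 828 to 1948 normalized counts in tuft cells and 25.0 to 45.9 in stem cells, and its call in SecPDG was lost without any one of stem cell libraries 2 and 3 and SecPDG 1. Cdkn2c (p18) was called lower in enterocytes (-2.03 ± 0.43) and EEC (-2.02 ± 0.62), and the latter was not called with DESeq2's size factors, without stem cell library 2 or without EEC 2. Cell types other than stem cells were not compared with each other for these genes.

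In the BCL2 family, which decides on cell death at the mitochondrion, Bmf, a death inducer of the same class as Bbc3, was called higher in EEC (2.65 ± 0.44), with 434 and 928 normalized counts there and 62.7 to 145 in stem cells. The pore-forming Bak1 was called lower in EEC (-1.97 ± 0.45). The survival gene Bcl2 (-1.54 ± 0.35) and Bok (-1.99 ± 0.45) were called lower in enterocytes, where the background rate amounted to 32.4% and 8.80% of their means. With DESeq2's size factors Bcl2 was at -1.01 with an adjusted p of 0.0101 and not called, and Bok was called (-1.45).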
